A study of Homo sapiens with 4 samples.

Results

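The histone genes were chosen by name, as the genes whose symbol in the deposited files starts with HIST1H to HIST4H, H1F, H2AF or H3F, without the symbols that mark pseudogenes. They numbered 92 of the 50868 genes in the files. Of these, 75 were replication-dependent HIST genes, 16 were replacement H1F, H2AF and H3F genes, and 1 was an antisense gene, H1FX-AS1. Another 25 genes with a matching name were left out as pseudogenes. Jurkat, an established human T-cell leukemia line, was treated for 24 h in 4 conditions, with 1 RNA-seq library each: DMSO (the solvent), 0.5 μM JQ1, DMSO + PHA and JQ1 + PHA. JQ1 blocks the bromodomains of BET proteins, and PHA is a plant lectin that activates T cells, given at 150 ng/ml. All cells were labelled wild type, and no condition had a second library. No comparison between conditions therefore has a replicate check and no test was made. Where 4 values are given, they stand in the order DMSO, JQ1, DMSO + PHA, JQ1 + PHA.

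Histone proteins package DNA: H2A, H2B, H3 and H4 form the nucleosome core and H1 binds the linker. Replication-dependent genes lie in clusters, are transcribed in S phase under NPAT, and make mRNAs that end in a stem-loop bound by SLBP in place of a poly(A) tail. Most replacement genes lie outside the clusters, are expressed through the cell cycle, and make polyadenylated mRNAs for variants such as H2A.Z, macroH2A and the replacement form of H3. Libraries made by poly(A) selection hold little of an mRNA without a tail. The library kit was named as an mRNA kit in the study's methods and as a universal RNA kit in the labels, so the capture step is not settled here.

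The stem-loop is what separates the classes in sequence, so a few examples are shown. A stem-loop of 16 bases was searched for within 150 bases after the stop codon on GRCh38, with GENCODE release 44. All 66 replication-dependent genes with an annotated stop codon had one, as did 1 of 16 replacement genes, H2AFX. Among 19924 protein-coding genes 73 had it (0.366%), of which 6 were not histone genes by the naming rule. The form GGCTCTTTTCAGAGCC was in 36 members, GGCCCTTTTCAGGGCC in 10 members that are all H4 genes, and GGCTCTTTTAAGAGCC in 10 others. In the sequences that follow, capitals mark the stem-loop, and each is given 5′ to 3′ on the strand of its gene.
HIST1H1C, chr6:26055739-26055764, minus strand: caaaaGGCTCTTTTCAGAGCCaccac
HIST1H2AC, chr6:26124664-26124689, plus strand: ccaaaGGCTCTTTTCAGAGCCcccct
HIST1H2BK, chr6:27146361-27146386, minus strand: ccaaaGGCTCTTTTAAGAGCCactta
HIST1H3G, chr6:26270918-26270943, minus strand: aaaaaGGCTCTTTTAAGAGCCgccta
HIST2H2BE, chr1:149886183-149886208, minus strand: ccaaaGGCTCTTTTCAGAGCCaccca
HIST2H4A, chr1:149833027-149833052, plus strand: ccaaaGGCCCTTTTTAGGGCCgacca
HIST4H4, chr12:14770719-14770744, minus strand: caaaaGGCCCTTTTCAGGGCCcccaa
H2AFX, chr11:119094893-119094918, minus strand: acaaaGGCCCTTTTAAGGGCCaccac
HIST1H2AC and HIST2H2BE, with among the largest JQ1 to DMSO ratios, and HIST1H1C, with one of the smaller ones, carry the same 16 bases.

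Promoters were read from RefSeq, 250 bases before each start on GRCh38, for 61 replication-dependent and 14 replacement genes. H1F0 was not used here. The octamer ATTTGCAT, the site of POU-domain factors, was searched on both strands. It was in 11 of 14 H2A and 14 of 18 H2B promoters of replication-dependent genes and in 0 of the 6 H1, 10 H3 and 13 H4 promoters, against 1.66% of 15843 protein-coding promoters. CCAAT was in 83.6% of replication-dependent promoters and in 78.6% of replacement promoters, against 34.6% of all. The H4 promoters stood apart with CCAAT in 3 of 13. TATAAA was in 65.6%, 28.6% and 9.11% in the same order, and the H1 box AAACACA was in 6 of 6 replication-dependent H1 promoters, against 3.45% of all. These motifs were matched as letters only, on both strands, and no motif contains another. The octamer is shown in capitals for 3 genes whose values are described below.
HIST1H2AC, chr6:26124033-26124058, plus strand: ggcagagctATGCAAATgaggtatga
HIST1H2BK, chr6:27146888-27146913, minus strand: cttcaccttATTTGCATgagaggtcc
HIST2H2BE, chr1:149886712-149886737, minus strand: ggagccctaATTTGCATaaggtggtt
The octamer of HIST1H2AC is the same stretch of DNA as that of HIST1H2BC, which is read from the other strand (tcatacctcATTTGCATagctctgcc).

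Counts summed to between 18620954 and 19685401 per library. Levels are compared between genes by the deposited FPKM, a count divided by a length set for each gene and by the library total. Ratios between libraries are those of the shares of counts, on the log2 scale unless given as a fold, with a 95% exact (Clopper-Pearson) interval that covers counting error only. Of the T-lineage markers 10 of 10 passed a filter (a mean FPKM of 1 or more over the 4 libraries), with a summed FPKM of 384 (DMSO), 262.5 (JQ1), 469 (DMSO + PHA) and 273 (JQ1 + PHA). CD79A, of the B lineage, had an FPKM of 7.48, 1.06, 6.33 and 1.01 in that order, and 0 myeloid or erythroid markers passed. CSF1R, FCGR3A, HBA2 and HBB were at 0 in all libraries. The part of these markers in the histone results was not tested.

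Histone genes took a larger share of the counts in both JQ1 libraries. They made up 0.156% of counts (95% exact interval 0.154 to 0.158) in the DMSO library, 0.268% (0.265 to 0.270) in the JQ1 library, 0.156% (0.155 to 0.158) in the DMSO + PHA library and 0.259% (0.257 to 0.261) in the JQ1 + PHA library. Replacement genes gave most of these counts, and replication-dependent genes made up 1.75% (1.61 to 1.91) of histone counts, 3.75% (3.58 to 3.91), 2.00% (1.84 to 2.16) and 3.87% (3.70 to 4.04). A share of counts in bulk RNA does not tell apart fewer cells that express a gene and less RNA per cell.

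Summed over the 75 replication-dependent genes, there were 516 (DMSO), 1972 (JQ1), 615 (DMSO + PHA) and 1863 (JQ1 + PHA) counts. Both JQ1 libraries were above both DMSO libraries, by a log2 ratio of 1.87 (1.73 to 2.01), or 3.65-fold, without PHA and of 1.68 (1.55 to 1.81), or 3.20-fold, with PHA. The 16 replacement genes had sums of 28886, 50669, 30168 and 46320 in the same order. Their log2 ratio of JQ1 to DMSO was smaller, at 0.75 (0.73 to 0.77), or 1.68-fold, and at 0.70 (0.68 to 0.72), or 1.62-fold, with PHA. In both of these JQ1 to DMSO comparisons the intervals of the classes did not overlap.

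Of the 92 genes, 23 passed the filter, 15 replication-dependent and 8 replacement, and 14 were at 0 in all libraries. Only 14 had an FPKM of at least 1 in both DMSO libraries, and 5 passed through the JQ1 libraries alone (HIST1H2AC, HIST1H2AG, HIST2H2BE, HIST2H4A and HIST1H3G), so that the counts that follow are a description. With 0.1 added to each FPKM before the ratio was taken, 18 of the 23 were at least 2-fold higher with JQ1 than with DMSO, against 5.22% of the 11503 genes that passed. At least 2-fold lower were 0, against 8.65%. In the presence of PHA 16 were at least 2-fold higher, against 3.69%, and 1, HIST1H2BK, was lower, against 8.0%. The same 16 were higher in both comparisons, 12 replication-dependent and 4 replacement, against 2.16% of all genes. For 19 genes the FPKM in both JQ1 libraries exceeded that in both DMSO libraries, against 36.3% of all, and for 0 it was below, against 38.5%. The median log2 ratio of FPKM of the 15 replication-dependent genes was 2.06 without PHA and 1.97 with PHA, and that of the 8 replacement genes was 1.17 and 1.11, beside -0.01 and -0.02 over all genes that passed. For the 6 replication-dependent genes with an FPKM of at least 1 in both DMSO libraries the medians were 1.08 and 1.02. These are not above the medians of the 8 replacement genes, which all met this rule.

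**Figure D1:**
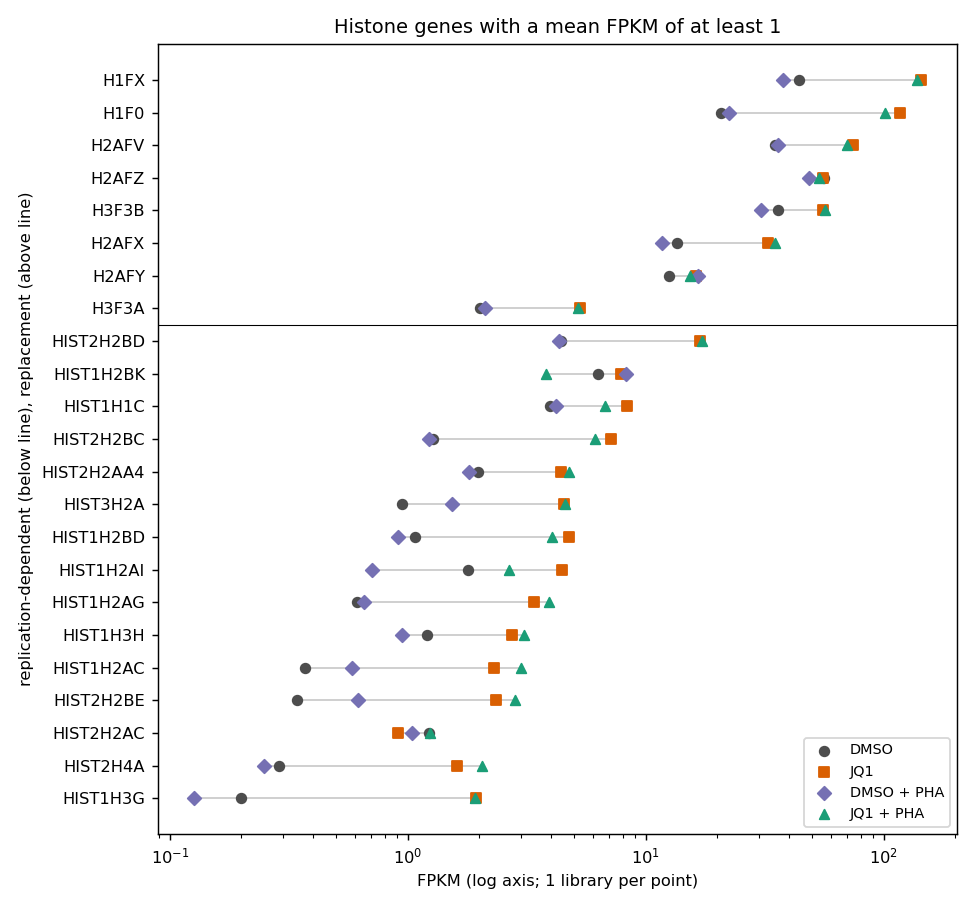
FPKM (log axis) of the 23 histone genes that passed the filter, with 1 point per library and replacement genes above the line. For 19 of the 23 genes both JQ1 points lie to the right of both DMSO points, and HIST1H2BK, HIST2H2AC, H2AFY and H2AFZ are the others.

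Among genes with more than 3 counts in either library of a pair, the interval of the ratio lay above 0 for 28 of 45 replication-dependent genes (62.2%) with JQ1 against DMSO and below 0 for 0. For replacement genes these numbers were 7 and 1 of 10. Over all genes, 28.2% were above 0 and 33.1% below. With PHA, 26 of 41 replication-dependent genes (63.4%) were above 0 and 2 below, and 7 and 2 of 11 replacement genes, against 25.5% and 33.8% of all. Replication-dependent genes with a count numbered 50 (DMSO), 59 (JQ1), 53 (DMSO + PHA) and 57 (JQ1 + PHA), and those with at least 10 counts 15, 29, 18 and 29. The number of detected replication-dependent genes was thus higher in both JQ1 libraries. Over all genes, those with a count numbered 21536 (DMSO), 21065 (JQ1), 22118 (DMSO + PHA) and 20939 (JQ1 + PHA), lower in the JQ1 libraries.

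The linker histones of the replacement class showed the highest JQ1 to DMSO ratios of that class. H1F0 (ENSG00000189060, chr22:37805093-37807436), which encodes a linker histone known for its abundance in cells that have stopped dividing, had an FPKM of 20.8 (DMSO), 117 (JQ1), 22.4 (DMSO + PHA) and 101 (JQ1 + PHA). Its counts were 916, 5402, 1033 and 4411, and both JQ1 libraries were far above both DMSO libraries. The log2 ratio was 2.49 (2.39 to 2.60) without PHA, or 5.64-fold, and with PHA 2.17 (2.08 to 2.27), or 4.51-fold. H1FX (ENSG00000184897, chr3:129314771-129316277), which encodes another linker histone made outside S phase, had an FPKM of 44.01, 144, 37.7 and 138 in the same order. The libraries again separated by JQ1, with log2 ratios of 1.71 (1.62 to 1.80) and 1.87 (1.77 to 1.97). Among the genes that passed the filter, H1F0 stood at percentile 87.5 of FPKM with DMSO and 98.7 with JQ1, and H1FX at 94.9 and 99.0. Both genes together gave 7.36% (7.06 to 7.66) of histone counts, 18.4% (18.0 to 18.7), 6.98% (6.70 to 7.27) and 17.2% (16.8 to 17.5), with the JQ1 libraries above. The antisense gene H1FX-AS1, which overlaps H1FX, had 5, 8, 2 and 4 counts. Whether the counting used strand is not stated in the sources used here, so its reads and those of H1FX cannot be told apart.

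The H2A variants differed among themselves. H2AFZ (ENSG00000164032) and H2AFV (ENSG00000105968) encode the closely related forms of H2A.Z, which marks promoters. H2AFV had an FPKM of 34.9 (DMSO), 74.1 (JQ1), 36.0 (DMSO + PHA) and 70.1 (JQ1 + PHA), and H2AFZ had 56.0, 55.7, 48.5 and 53.7. H2AFV was higher in both JQ1 libraries, with log2 ratios of 1.09 (1.03 to 1.14) and 0.96 (0.91 to 1.01), while H2AFZ was at -0.01 (-0.06 to 0.04) and 0.15 (0.10 to 0.20). The ratio of FPKM of H2AFZ to H2AFV was 1.61 with DMSO and 0.752 with JQ1, and 1.35 and 0.767 in the presence of PHA. By FPKM the order of these genes was thus opposite in the JQ1 libraries. That order rests on implied lengths of 6473 bases for H2AFZ and 6386 for H2AFV, which may not be those of the mRNAs. H2AFX (ENSG00000188486), the variant that is phosphorylated at DNA breaks, had an FPKM of 13.6, 32.7, 11.8 and 34.9, with log2 ratios of 1.27 (1.14 to 1.39) and 1.57 (1.44 to 1.70). It is the member of the replacement class with the stem-loop printed above, and its model in the files runs 1044 bases past it.

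The macroH2A genes, which encode H2A with a large added domain found on silent chromatin, went other ways. H2AFY (ENSG00000113648) had an FPKM of 12.5 (DMSO), 16.3 (JQ1), 16.7 (DMSO + PHA) and 15.4 (JQ1 + PHA). Only the DMSO library stood low. The log2 ratios of JQ1 to DMSO were 0.39 (0.34 to 0.43) without PHA, but -0.11 (-0.16 to -0.07) when PHA was present. H2AFY2 (ENSG00000099284), below the filter and named after its values were seen, had 25, 1, 33 and 7 counts. Its share was lower in the JQ1 libraries, at -4.71 (-10.1 to -2.098) and -2.16 (-3.58 to -0.96). It was the replacement gene whose interval lay below 0 without PHA.

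H3F3A (ENSG00000163041) and H3F3B (ENSG00000132475) encode the same replacement H3 protein. H3F3B had an FPKM of 36.0 (DMSO), 55.6 (JQ1), 30.7 (DMSO + PHA) and 57.0 (JQ1 + PHA), from 8300, 13391, 7390 and 12988 counts. Both JQ1 libraries were higher, with log2 ratios of 0.63 (0.59 to 0.67) and 0.89 (0.85 to 0.94). H3F3A had an FPKM of 2.02, 5.30, 2.11 and 5.22, from 169, 464, 185 and 432 counts, with log2 ratios of 1.39 (1.14 to 1.66) and 1.30 (1.05 to 1.56). The processed pseudogenes H3F3AP4 and H3F3AP6, which the naming rule leaves out, each held more reads than H3F3A, with 1593, 2803, 1601 and 2646 counts for H3F3AP4. Summed over H3F3A and both of them, the log2 ratios were 0.82 (0.76 to 0.88) and 0.85 (0.79 to 0.91). The value of H3F3A is therefore uncertain, since reads of near-identical copies could have been split in counting. H3F3B overlaps UNK on the opposite strand, which had between 727 and 885 counts.

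By FPKM, the order with DMSO was H2AFZ, H1FX, H3F3B, H2AFV, H1F0, H2AFX and H2AFY, and with JQ1 it was H1FX, H1F0, H2AFV, H2AFZ, H3F3B, H2AFX and then HIST2H2BD. H2AFZ and H3F3B, at 55.7 and 55.6 with JQ1, were not apart. The lengths implied by count and FPKM reach 12247 bases for H3F3B and 27407 for H2AFY, more than an mRNA of these genes holds, so that their FPKM is low for their counts. The 6473 bases implied for H2AFZ and the 2987 for H2AFX are more than their loci span (chr4:99948086-99950388 and chr11:119093854-119095467). The places of these genes in the order are therefore uncertain.

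Summed replication-dependent counts were higher with JQ1 in each histone type. Their counts summed to 139 (DMSO), 560 (JQ1), 165 (DMSO + PHA) and 603 (JQ1 + PHA) for H2A, and to 201, 822, 257 and 740 for H2B. The log2 ratios of JQ1 to DMSO without PHA were 1.95 (1.67 to 2.22) for H2A, 1.97 (1.74 to 2.20) for H2B, 1.97 (1.499 to 2.46) for H3 and 1.88 (1.51 to 2.28) for H4, and these intervals overlap. The ratio of H1 was smaller, at 1.01 (0.54 to 1.49). With PHA the ratios were 1.95 (1.70 to 2.21) for H2A, 1.61 (1.40 to 1.82) for H2B, 2.08 (1.60 to 2.59) for H3, 1.58 (1.23 to 1.95) for H4 and 0.70 (0.21 to 1.19) for H1. Within the replacement class the order was the reverse for H1, with log2 ratios of 2.095 (2.03 to 2.16) and 2.02 (1.96 to 2.09) for H1, 0.51 (0.48 to 0.54) and 0.35 (0.32 to 0.38) for H2A, and 0.65 (0.61 to 0.68) and 0.91 (0.86 to 0.95) for H3. H3F3B gave 8300 of the 8473 replacement H3 counts in the DMSO library, and without it the H3 ratios were 1.38 (1.13 to 1.64) and 1.28 (1.04 to 1.53), still below those of H1. The H1 genes thus had the largest ratio among replacement genes and the smallest among replication-dependent genes in both comparisons. Every replication-dependent H1 gene, however, had a gene model that stops before its stem-loop ends. Genes without the longer models had the smaller summed ratios, as described below, so type and model end cannot be told apart for these H1 genes.

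**Figure D2:**
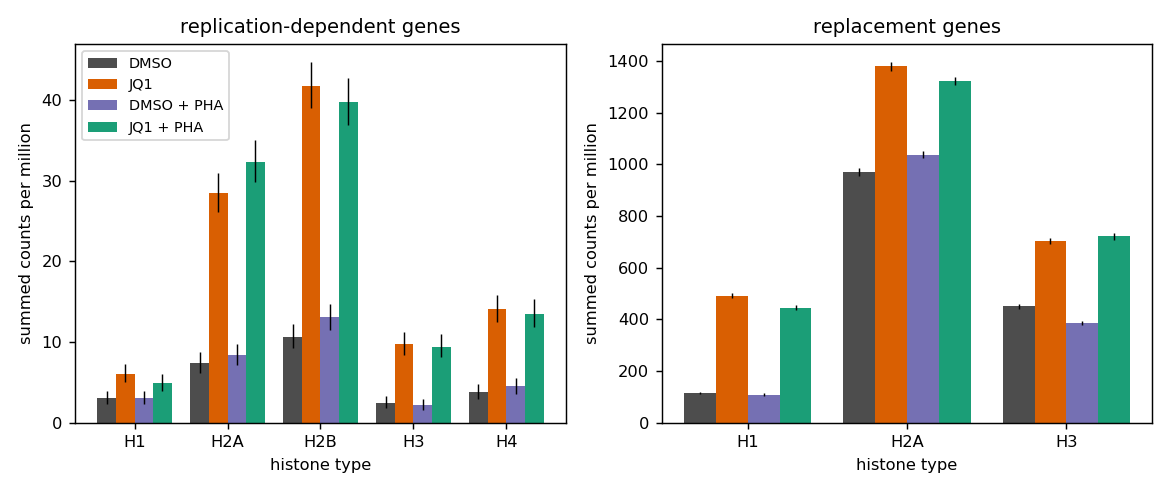
Summed CPM (linear axes of different range) of replication-dependent genes (left) and replacement genes (right) by histone type, with 1 bar per library and bars of 95% counting error. CPM is the count scaled by the total of its library. In each of the 8 groups both JQ1 bars are above both DMSO bars, and the replacement H1 bars of the JQ1 libraries are about 4 times those of the DMSO libraries.

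Single replication-dependent genes were sparse. HIST1H1C (ENSG00000187837), a linker histone, had an FPKM of 3.97 (DMSO), 8.31 (JQ1), 4.19 (DMSO + PHA) and 6.78 (JQ1 + PHA), from 48, 105, 53 and 81 counts, with log2 ratios of 1.07 (0.56 to 1.59) and 0.69 (0.17 to 1.22). It gave most of the 57 H1 counts of its class in the DMSO library. HIST1H2AC (ENSG00000180573) had 29, 189, 48 and 234 counts and an FPKM of 0.369, 2.30, 0.584 and 3.01. The JQ1 libraries were above, with log2 ratios of 2.64 (2.07 to 3.26) and 2.37 (1.91 to 2.85). HIST1H2BC, which shares its octamer with HIST1H2AC and was picked after its values were seen, had 13, 15, 27 and 15 counts, with log2 ratios of 0.14 (-1.03 to 1.33) and -0.77 (-1.78 to 0.19), not detectable at this depth. The intervals of this divergent pair did not overlap in either comparison. The models of HIST1H2BC and HIST1H1C overlap that of HIST1H2BB on the same strand, over 9032 and 642 bases. Their reads could be shared with it in counting, so the counts of both genes are uncertain.

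HIST1H3G (ENSG00000273983), an H3 gene, had 9, 92, 6 and 86 counts, the largest log2 ratios among replication-dependent genes that passed, at 3.29 (2.30 to 4.46) and 3.92 (2.74 to 5.41). HIST1H2AG (ENSG00000196787) had 26, 150, 29 and 165 counts and HIST1H2BD (ENSG00000158373) had 26, 121, 23 and 97. In both genes the JQ1 libraries were several times the DMSO libraries, with log2 ratios of 2.46 (1.86 to 3.12) and 2.59 (2.01 to 3.21) for HIST1H2AG and of 2.15 (1.53 to 2.83) and 2.16 (1.49 to 2.88) for HIST1H2BD. HIST1H3H (ENSG00000278828) had 28, 67, 23 and 71 counts, and HIST1H2AI (ENSG00000196747) 17, 44, 7 and 25. Among the histone genes that passed the filter, the latter was the one at least 2-fold lower with PHA in DMSO-treated cells, at -1.34 (-2.86 to -0.00).

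HIST1H2BK (ENSG00000197903) did not follow the others. Its FPKM was 6.28 (DMSO), 7.87 (JQ1), 8.27 (DMSO + PHA) and 3.81 (JQ1 + PHA), from 45, 59, 62 and 27 counts, and the JQ1 + PHA library was the lowest. The log2 ratio of JQ1 to DMSO was 0.33 (-0.26 to 0.92) without PHA, not detectable at this depth, and -1.12 (-1.83 to -0.45) with PHA. In the JQ1-treated cells it was lower with PHA, at -1.05 (-1.76 to -0.37). Among the histone genes that passed the filter it was the only one past 2-fold in that comparison. Its rank by FPKM among the histone genes was 8, 10, 8 and 16 in the 4 libraries. HIST2H2AC (ENSG00000184260), with 9, 7, 8 and 9 counts, had intervals that held 0 in both JQ1 comparisons.

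By locus, the 55 HIST1 genes on chromosome 6 had log2 ratios of 1.80 (1.62 to 1.98) and 1.55 (1.38 to 1.71), the 15 HIST2 genes on chromosome 1 had 2.00 (1.74 to 2.27) and 2.09 (1.83 to 2.35), and the 4 HIST3 genes, also on chromosome 1, had 2.38 (1.78 to 3.03) and 1.81 (1.30 to 2.35). Without PHA the intervals of these loci overlap, and with PHA that of HIST2 lies above that of HIST1. Within HIST1, the 34 genes up to HIST1H4H summed to 170 (DMSO), 733 (JQ1), 222 (DMSO + PHA) and 668 (JQ1 + PHA) counts, and the 21 genes from HIST1H2BJ on to 155, 447, 173 and 422. The log2 ratio of the former was 2.04 (1.80 to 2.29), above that of the latter at 1.46 (1.20 to 1.74) without PHA, while with PHA, at 1.67 (1.45 to 1.89) and 1.37 (1.11 to 1.63), the intervals overlap. The longer and shorter gene models described below are not spread evenly over HIST1, HIST2 and the parts of HIST1. Locus and model end therefore cannot be told apart in these differences. HIST4H4 (ENSG00000197837), below the filter but the single replication-dependent gene on chromosome 12, had 17, 30, 23 and 9 counts, with log2 ratios of 0.75 (-0.15 to 1.71) and -1.27 (-2.57 to -0.11). It was lower in the JQ1 + PHA library and its direction differed from that of the clusters there.

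In HIST2 several loci overlap. HIST2H2BD (ENSG00000220323), annotated as a transcribed pseudogene in release 44, had an FPKM of 4.42 (DMSO), 16.9 (JQ1), 4.33 (DMSO + PHA) and 17.2 (JQ1 + PHA), and HIST2H2BC (ENSG00000203819) had 1.28, 7.18, 1.23 and 6.11. Both were higher with JQ1, with log2 ratios of 1.93 (1.43 to 2.47) and 1.99 (1.49 to 2.52) for HIST2H2BD and of 2.49 (1.66 to 3.42) and 2.32 (1.47 to 3.26) for HIST2H2BC. HIST2H2BE (ENSG00000184678) had 17, 122, 32 and 139 counts, with log2 ratios of 2.78 (2.04 to 3.60) and 2.20 (1.64 to 2.80). Its model in the files runs 43984 bases past the stem-loop. It overlaps HIST2H2BC, HIST2H2BD, HIST2H2AA3, HIST2H2AA4, HIST2H3A and, on the same strand, HIST2H4B. The model also overlaps RP11-196G18.23, RP11-196G18.24 and, on the same strand, the noncoding locus RP11-196G18.22, with 209, 861, 175 and 737 counts. Reads of HIST2H2BE could be shared with these loci. HIST2H4A (ENSG00000270882) had 20, 117, 18 and 141 counts and its identical copy HIST2H4B 8, 40, 11 and 30. HIST2H2AA4 (ENSG00000272196) had 21, 49, 20 and 50 counts and its identical copy HIST2H2AA3 8, 11, 5 and 9, and the copies HIST2H3A and HIST2H3C had at most 4 counts in any library. Values of such copies are uncertain one by one, and without them the log2 ratio of the whole class was 1.88 and 1.63. HIST3H2A (ENSG00000181218) had 16, 80, 27 and 76 counts, with log2 ratios of 2.26 (1.47 to 3.13) and 1.57 (0.92 to 2.26). Of the 23 genes that passed, 10 overlap a locus with more than 3 counts.

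**Figure D3:**
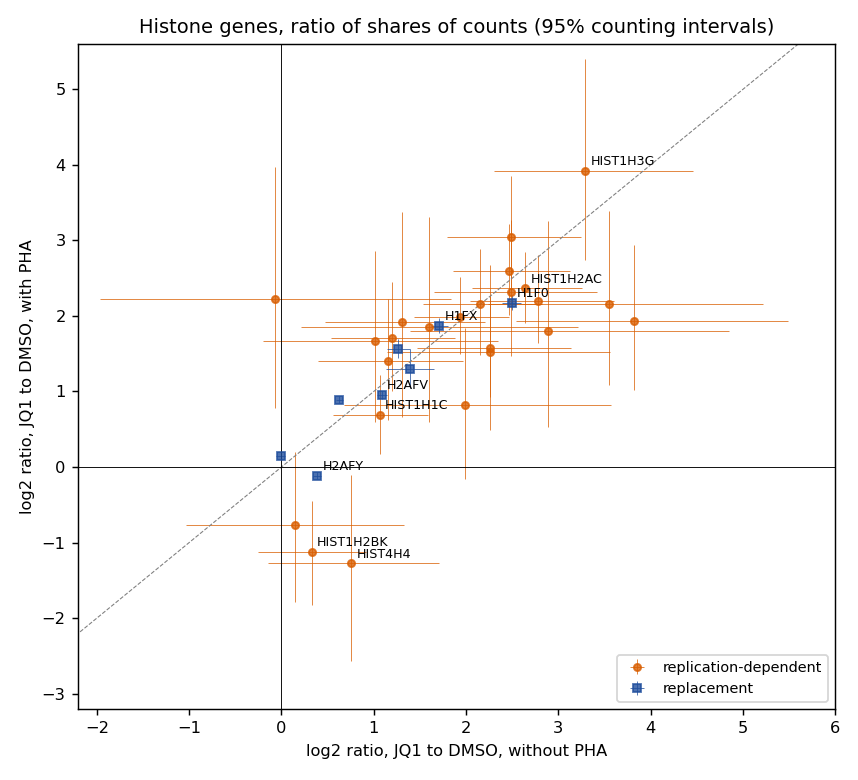
Log2 ratio of the shares of counts, JQ1 to DMSO, without PHA (horizontal) and with PHA (vertical) for 32 histone genes with more than 3 counts in every library and at least 20 in some library, with 95% counting intervals. Of the 32 genes, 24 replication-dependent and 8 replacement, 26 have both ratios above 0, while HIST1H2BK, HIST1H2BC, HIST4H4 and H2AFY lie below 0 with PHA and H2AFZ and HIST3H2BA lie just below 0 without PHA. Some genes reach 20 counts in the JQ1 libraries alone, which favors ratios above 0, and the share of all genes under this rule was not counted.

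The end of the gene model in the files differed among replication-dependent genes. Of the 66 genes with a stem-loop, 34 had models that stop before the stem-loop ends, 8 had models that run up to 212 bases past it, and 24 had models that run 390 bases or more past it, up to the 43984 of HIST2H2BE. Genes with the longer models summed to 261 (DMSO), 1314 (JQ1), 331 (DMSO + PHA) and 1293 (JQ1 + PHA) counts. The other 42 summed to 164, 339, 196 and 261. The log2 ratio of JQ1 to DMSO was 2.27 (2.07 to 2.46) for the former and 0.98 (0.71 to 1.26) for the latter, and 2.05 (1.87 to 2.23) and 0.49 (0.22 to 0.77) with PHA. In both comparisons the intervals of these groups did not overlap. HIST1H1C and HIST1H2BK, with the smaller ratios given above, have models that stop 43 and 52 bases before the end of the stem-loop, and HIST1H2AC, HIST1H3G and HIST1H2BD have models that run 14432, 1518 and 12747 bases past it. HIST1H2BC and HIST4H4 also have the longer models, 8599 and 2725 bases, with ratios among the lowest. What the reads past the stem-loop are was not tested.

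**Figure D4:**
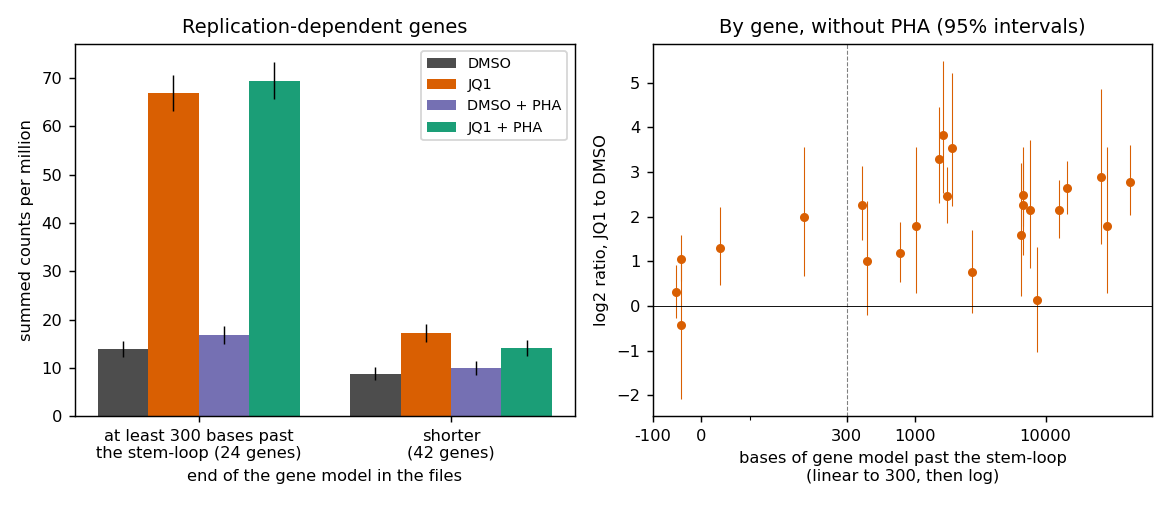
Left, summed CPM of replication-dependent genes by the end of their model, with 95% counting error. Right, log2 ratio of JQ1 to DMSO without PHA of 24 genes with more than 3 counts in both libraries against the bases of the model past the stem-loop (linear to 300, then log), where 17 of 19 genes with the longer models and 3 of 5 with the shorter ones are above a log2 ratio of 1. The share of all genes above it under this rule was not counted.

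Fewer histone genes passed 2-fold between the libraries with and without PHA. With DMSO + PHA against DMSO, 0 of the 23 genes were at least 2-fold higher, against 2.1% of all genes, and 1 was lower, against 1.19%. In JQ1-treated cells 0 were higher with PHA, against 1.04%, and 1 lower, against 1.03%. The log2 ratio of the summed replication-dependent counts was 0.19 (0.02 to 0.36) in DMSO-treated and -0.00 (-0.09 to 0.09) in JQ1-treated cells, and that of the replacement counts was -0.00 (-0.03 to 0.02) and -0.05 (-0.07 to -0.03). The interval lay above 0 for 0 of 33 replication-dependent genes and below for 1 with DMSO, and above for 1 (H2AFY) and below for 4 of 10 replacement genes (H1FX, H2AFX, H2AFZ and H3F3B), against 20.6% and 18.2% of all genes. In JQ1-treated cells 2 of 46 replication-dependent genes were above and 4 below, and 1 and 5 of 11 replacement genes, against 12.5% and 12.4%. Among the 8 replacement genes that passed, H2AFY had the largest ratio of PHA to no PHA in DMSO-treated cells, at 0.42 (0.37 to 0.46), and was at -0.09 (-0.13 to -0.04) in JQ1-treated cells. There H1F0 had the ratio farthest from 0, at -0.21 (-0.27 to -0.16). The comparisons of PHA share libraries with those of JQ1.

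Genes that make and process replication-dependent mRNA had median ratios below 0. Of 26 genes of histone transcription and mRNA processing, all passed the filter, with a median log2 ratio of FPKM of -0.19 for JQ1 against DMSO and -0.23 with PHA, beside -0.01 and -0.02 over all genes that passed. Of the 26, 11 had a ratio above 0 without PHA and 8 with PHA, so the median does not describe each part of the list. Without PHA 1 was at least 2-fold higher (5.22% of all genes) and 3 were lower (8.65%), and with PHA 0 were higher (3.69%) and 2 lower (8.0%). SLBP, the stem-loop binding protein, had an FPKM of 26.3 (DMSO), 24.6 (JQ1), 24.6 (DMSO + PHA) and 27.7 (JQ1 + PHA). NPAT, the activator of the clusters, had 6.22, 8.99, 7.36 and 9.50, higher in both JQ1 libraries but under 2-fold. SNRPE, a protein of the Sm core, had 27.2, 13.7, 22.6 and 12.7, and LSM11, a subunit of the U7 particle that cuts these mRNAs, had 6.21, 3.53, 7.65 and 3.65. Both of these were lower in the JQ1 libraries.

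Among 27 histone chaperones and deposition factors the medians were 0.02 and 0.07, with 0 higher and 2 lower in each comparison. Over all genes that passed, 5.22% were higher and 8.65% lower without PHA, and 3.69% and 8.0% with PHA. The 2 lower of 27 are thus near the share of all genes. The same shares stand beside the counts of the lists that follow. IPO4, an importin that carries histones, had an FPKM of 8.16 (DMSO), 0.944 (JQ1), 6.56 (DMSO + PHA) and 0.845 (JQ1 + PHA), and NPM1 had 291.9, 123.9, 246.3 and 117.4. Of 38 S-phase replication genes the medians were -0.23 and -0.01, with 2 higher without PHA, 1 with PHA and 0 lower. RRM2, a subunit of ribonucleotide reductase, was higher in both, at 33.2, 66.6, 30.9 and 69.7. Of 20 mitosis genes the medians were 0.16 and 0.26 with 0 past 2-fold, and CENPE, a kinetochore motor, had 22.9, 44.1, 25.6 and 43.6, and KIF11 had 75.8, 126.5, 76.7 and 126.7. CENPA, the centromeric H3 variant whose name is outside the rule, had an FPKM of 4.75, 6.85, 4.55 and 6.13, and CENPW, a histone-fold protein of the centromere, 46.0, 33.1, 46.1 and 34.8, and 3 of 7 such genes in the files passed. Of RNA known to lack a poly(A) tail, 14 long noncoding genes summed to 101, 90, 106 and 74 counts, of which SNORA73B gave 59, 15, 45 and 13. The 4 that passed had a median log2 ratio of FPKM of 0.51 for JQ1 against DMSO, with 1 at least 2-fold higher and 1 lower, and of -0.97 with PHA, with 1 higher and 2 lower, so their directions were mixed at these low counts. The part of poly(A) capture in the histone ratios was not tested.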

How the data were processed

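RNA-seq had been done on 4 Jurkat libraries, 1 per condition. The authors aligned reads to GRCh38 with Hisat2 2.0.4, per their methods. The submitters' processing notes also list TopHat2 2.0.9 and Cufflinks 2.1.1, with no role. The deposited counts are whole reads per gene without normalization, per the file headers. The deposited FPKM were checked to be the count over a fixed length per gene and the library total (largest relative spread of the implied length 4.65e-05, 12689 genes). The counter, its use of strand and of multiply aligned reads, and the annotation release are not given in the sources used here.

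The members, the gene lists, the 300-base limit on model ends and the other choices were made with earlier results of these data known. Genes were counted past 2-fold by log2 FPKM with a pseudocount of 0.1 where the mean FPKM reached 1. Ratios of shares of counts carry 95% exact (Clopper-Pearson) intervals, for counting error only. Ratios are given by class, type, locus and model end from summed counts. No test between conditions and no gene set test was run. Each histone gene that passed the filter is named, as are identical copies, the antisense gene and any histone gene with at least 100 counts in a library (0 beyond those that passed), and of each list at most 4 genes past 2-fold in both JQ1 comparisons, otherwise the 2 with the largest smaller ratio of one sign, with SLBP, NPAT and CENPA.

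Members were matched to GENCODE release 44 by Ensembl identifier. Of the 75 replication-dependent genes, 6 were not in that release and 3 are annotated there as pseudogenes. Stem-loops were read from GRCh38 and promoters from RefSeq. A 2-fold call on count ratios and the exact interval were tested on simulated counts of JQ1 against DMSO, and the other steps were not. Alternatives were other pseudocounts, filters, thresholds, scalings (edgeR 4.0.16 TMM, DESeq2 1.42.0 size factors, for scaling only) and sets without some members. Python 3.11.15 (numpy 2.4.6, pandas 2.3.3, scipy 1.17.1, pysam 0.24.0, matplotlib 3.10.9) and R 4.3.3 were used.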

Additional observations from a re-analysis of the deposited data

Results flagged for a closer look

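For 6 histone genes the ratio of JQ1 to DMSO had opposite signs without and with PHA, with an interval clear of 0 in at least 1 of these comparisons. The share of all genes that meet this rule was not counted. Only for H2AFY were both intervals clear of 0, and H2AFZ and HIST3H2BA were at -0.01 and -0.06 without PHA, with intervals that held 0. The difference, the log2 ratio of JQ1 to DMSO with PHA minus that without, was -0.50 for H2AFY, 0.16 for H2AFZ, -1.45 for HIST1H2BK, -2.19 for HIST1H4E, 2.28 for HIST3H2BA and -2.03 for HIST4H4. HIST1H4E had 5, 18, 7 and 5 counts and HIST3H2BA 6, 6, 5 and 22, in the order DMSO, JQ1, DMSO + PHA, JQ1 + PHA. None of these differences was tested, since each condition had 1 library.

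Among the names left out as pseudogenes, 5 of 25 had more than 3 counts in a library. In 3 of them the interval of the JQ1 to DMSO ratio lay above 0 both without and with PHA. H3F3AP4 had 2803 counts in the JQ1 library and 1593 in the DMSO library. H3F3AP6 had 2768 and 1513, and HIST1H2APS4 had 20 and 0.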

How the results depend on the processing

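The summed ratios of the replication-dependent class stayed above 0 in both JQ1 comparisons under the scalings and subsets run, and 0 results whose interval was clear of 0 changed sign. With a mean FPKM of at least 0.1, no filter, and a mean FPKM of at least 5, the histone genes at least 2-fold higher with JQ1 numbered 38, 42 and 6 without PHA (18 as reported) and 34, 37 and 4 with PHA (16). Those lower numbered 2 and 2 at the lower filter and with none without PHA (0), and 8 and 9 with PHA (1). For PHA in DMSO-treated cells they were 6 and 8 higher (0) and 4 and 4 lower (1), with 0 lower at the stricter filter. In JQ1-treated cells they were 6 and 8 higher (0) and 10 and 12 lower (1). A pseudocount of 1 left 0 lower in each of these last 3 comparisons, and a 1.5-fold threshold gave 2 higher for PHA in DMSO-treated cells and 2 lower in JQ1-treated cells. In the genes with an FPKM of at least 1 in both DMSO libraries, a choice added after the data were seen, the replication-dependent median was 1.08 without PHA and 1.02 with PHA. The replacement sums gave 0.77 and 0.75 under TMM, 0.79 and 0.76 under DESeq2 size factors, and 0.79, 0.63, 0.081 and -0.082 without H3F3B over the 4 comparisons. The cause of these shifts was not tested. Each filter lets in a different number of histone genes, including genes with few counts at the looser ones. The share over all genes at these other filters was not counted. Their numbers therefore cannot be set against 18 and 16 as shares.

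No paired analysis was possible because each condition had 1 library, and no library was left out. Genes with few counts limit the replication-dependent class most, with 516 counts over 75 genes in the DMSO library, and 3 counts are between 0.152 and 0.161 CPM.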
